A study of Homo sapiens with 30 samples.

Results

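GDF15 (growth differentiation factor 15) was followed through 30 RNA-seq libraries of LNCaP, an established androgen-responsive line of human prostate cancer cells. It is 1 of 26443 genes with values, and it was chosen by its abundance, that is, by its FPKM and RPKM levels, so its levels and ranks are given as a description. The rule does not use differences between groups, which were tested, though earlier results of these data were known when the gene was chosen. The libraries formed 10 groups of 3 in 3 experiments. In the pLKO experiment, cells carried shUSP7-1, shBUB3, shFOXA1 or the pLKO control vector for 5 days. In the siRNA experiment, cells had siEZH2 or siCtrl for 4 days. In the pGIPZ experiment, cells carried shFoxA1 with the K295A form of HA-tagged FOXA1 (shFoxA1 K295A), shFoxA1 with HA-tagged wild-type FOXA1 (shFoxA1 WT), shFoxA1 alone, or the pGIPZ control vector, for 5 days; the third K295A library lies outside the range of samples for which the labels state that time. All groups are the same cell line, and each target was reduced with 1 labelled shRNA or siRNA per experiment. FOXA1 was reduced in the pLKO experiment as shFOXA1 and in the pGIPZ experiment as shFoxA1. The labels do not state whether replicates were grown as separate cultures, so the p-values cover the variation among libraries, which may be technical. Values are FPKM in the pLKO and siRNA experiments and RPKM in the pGIPZ experiment, both meaning reads per gene length and per library total.

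GDF15 is a secreted, distant member of the TGF-beta superfamily that cells release under stress. It is made as a precursor that furin-like proteases cut, and the mature dimer signals through the receptor GFRAL with the co-receptor RET, which in the body is found in the hindbrain and acts on appetite. Its gene is a textbook target of DNA damage signalling and of ATF4 and DDIT3 (CHOP), the transcription factors of the integrated stress response, and prostate cancers are known to make much of it. Of the proteins reduced in these cells, FOXA1 is a forkhead transcription factor that opens chromatin in luminal prostate cells, USP7 is a deubiquitinase that acts on the ubiquitin ligase MDM2, BUB3 is a spindle checkpoint protein, and EZH2 is the methyltransferase of a Polycomb repressive complex.

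GDF15 lies on the + strand of chromosome 19 at 18374731 to 18389176 (GRCh38, GENCODE 29). Its main transcript, GDF15-201, runs from 18386158 to 18389176 and has 2 exons, 309 and 891 bases long. The microRNA gene MIR3189 sits in the intron between them, at 18386562 to 18386634. Because FOXA1 is a forkhead factor, the 250 bases before the start of GDF15-201 were searched on both strands for the forkhead core TGTTTAC, the GC box GGGCGG and the TATA box TATAAA, in RefSeq promoters of GRCh38.p14. TGTTTAC occurred 1 time, 96 to 90 bases before the start, and 2.98% of 35116 promoters hold it in a window of the same length. TATAAA occurred 1 time, 29 to 24 bases before the start (10.7% of promoters), and GGGCGG matched 2 times (42.6%). There was no match to TGATGCAA, the composite site of ATF4 (0.772% of promoters), nor to the AP-1 site TGACTCA (4.2%), the EGR1 site GCGTGGGCG (0.72%) or the E-box CACGTG (6.34%). These are matches of letters in 1 window and not measured sites. The 30 bases around the forkhead and TATA matches, 5′ to 3′ on the + strand with the match in capitals, follow; in GENCODE 29 the 250-base window also overlaps an exon of the longer transcripts GDF15-203, GDF15-204 and GDF15-205.
GDF15 forkhead match, chr19:18386050-18386079: tggtcattggagTGTTTACtctgcaggcag
GDF15 TATA match, chr19:18386117-18386146: aagtccggggacTATAAAggccggtccggc

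Across the 10 groups the level of GDF15 ran over a 7.26-fold range of means. It was the most abundant of all 26443 genes in the 3 shUSP7-1 libraries and in the 3 pGIPZ control libraries, and in no library did it stand below rank 61. In the pLKO experiment it had 2130, 2182 and 2115 FPKM in shUSP7-1 cells, 1227, 1193 and 1624 FPKM in shBUB3 cells, 437, 480 and 466 FPKM in shFOXA1 cells, and 647, 678 and 672 FPKM in pLKO control cells. The 4 groups did not overlap, and the third shBUB3 library stood above the other two of its group. That library also had the largest summed value of the experiment, 367614 FPKM over all genes.

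In the siRNA experiment GDF15 had 328, 326 and 380 FPKM in siEZH2 cells, against 935, 735 and 864 FPKM in siCtrl cells. Each siEZH2 library was below each siCtrl library. In the pGIPZ experiment it had 766, 777 and 763 RPKM in shFoxA1 K295A cells, 858, 846 and 852 RPKM in shFoxA1 WT cells, 652, 669 and 657 RPKM in shFoxA1 cells, and 2534, 2457 and 2523 RPKM in pGIPZ control cells. These 4 groups did not overlap either, and their libraries lay close together, with SDs of 7.35, 5.80, 8.50 and 41.6 RPKM.

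**Figure D1:**
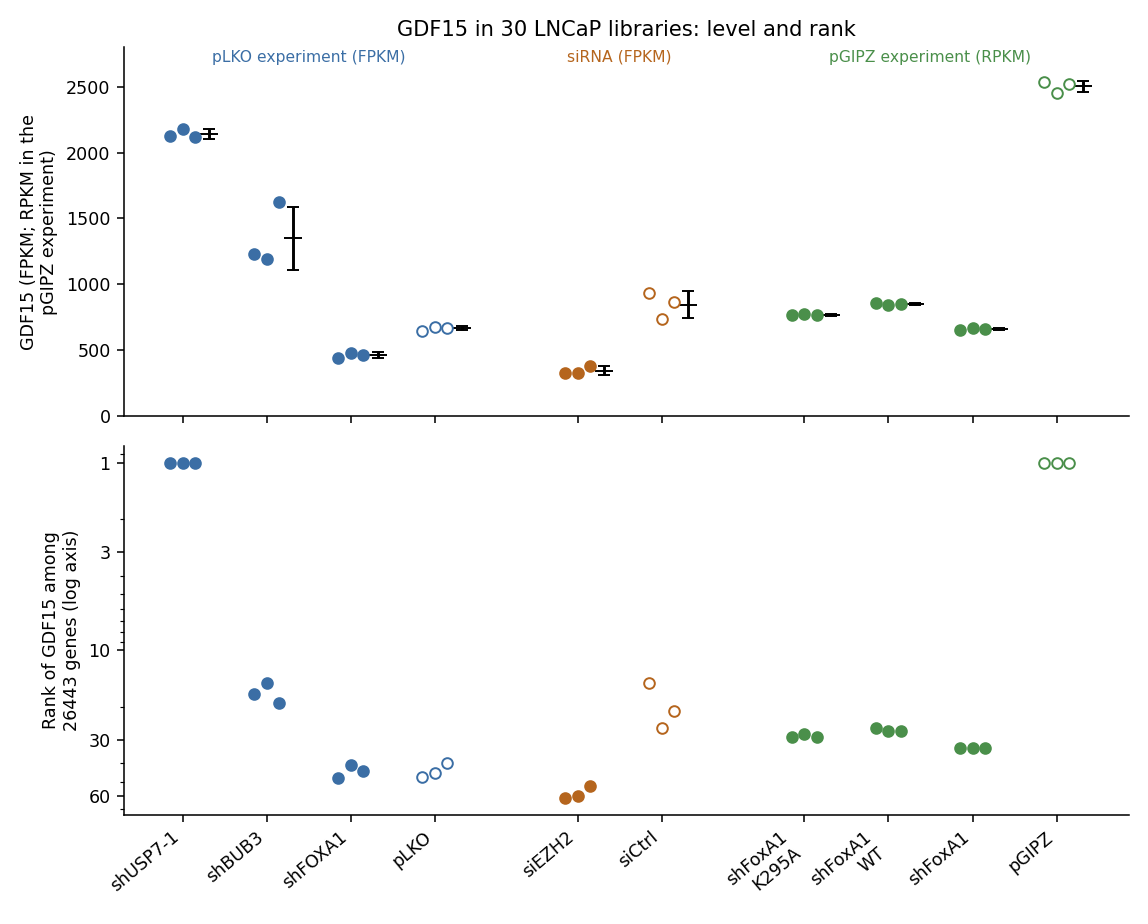
GDF15 in each of 30 libraries (points), with the group mean and SD beside them, as FPKM or RPKM in the upper panel and as rank among 26443 genes in the lower panel (log axis, rank 1 at the top). Open points are the control groups; the shUSP7-1 and pGIPZ control libraries sit at rank 1, and the lowest ranks, 53 to 61, are those of siEZH2 cells.

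By group mean the order was pGIPZ control (2505 ± 41.6 RPKM, SD, n = 3), shUSP7-1 (2142 ± 35.3 FPKM), shBUB3 (1348 ± 240 FPKM), shFoxA1 WT (852 ± 5.80 RPKM), siCtrl (845 ± 102 FPKM), shFoxA1 K295A (769 ± 7.35 RPKM), pLKO control (666 ± 16.5 FPKM), shFoxA1 (659 ± 8.50 RPKM), shFOXA1 (461 ± 22.0 FPKM) and siEZH2 (345 ± 30.9 FPKM), with n = 3 in each. Neighbours whose ranges overlapped were shFoxA1 WT with siCtrl, siCtrl with shFoxA1 K295A, and pLKO control with shFoxA1, and the other neighbours did not overlap. The FPKM and RPKM values were deposited separately, and whether they share a scale is not stated, so this order was not tested across them. As a share of the summed values of a library, GDF15 averaged 0.753% in shUSP7-1, 0.412% in shBUB3, 0.191% in shFOXA1 and 0.236% in pLKO control cells. It averaged 0.145% in siEZH2 cells and 0.297% in siCtrl cells. In the pGIPZ experiment it averaged 0.259% in shFoxA1 K295A, 0.290% in shFoxA1 WT, 0.240% in shFoxA1 and 0.885% in pGIPZ control cells.

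The 3 control groups, all LNCaP cells with no target reduced, differed in their GDF15 levels. The pGIPZ control mean was 3.76 times the pLKO control mean, while the median ratio over 11401 genes at 1 or more in both was 0.984 and 0.5% of those genes had a larger ratio than GDF15. The siCtrl mean was 1.27 times the pLKO control mean, against a median ratio of 1.08 over 11344 genes, and 23.6% of genes had a larger ratio. The pGIPZ and pLKO controls differ in vector, experiment and table at once, and these cannot be told apart.

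At the top of the list GDF15 stood among ribosomal protein genes. The 3 most abundant genes were RPL13A (1640 FPKM), RPS2 (1552 FPKM) and RPL7A (1523 FPKM) in pLKO control cells, RPS6 (1500 FPKM), RPL8 (1401 FPKM) and RPL35A (1335 FPKM) in siCtrl cells, and GDF15, RPL37A (1957 RPKM) and RPLP1 (1624 RPKM) in pGIPZ control cells. In pLKO control cells GDF15 was in place 44, between the ferritin heavy chain gene FTH1 (670 FPKM) above and RPS21 (661 FPKM) below, and in siCtrl cells in place 21, between RPL19 (855 FPKM) and RPS14 (790 FPKM).

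As to library quality, all 5 luminal prostate markers, KRT8, KRT18 and KLK3 among them, reached a value of 1 in each experiment, with summed levels of 359 to 1911 per library. Basal markers summed to at most 7.50, endothelial markers to at most 4.62, stromal markers to at most 14.7 and immune markers, of which only CD68 reached 1, to at most 35.2. In the pLKO experiment luminal markers summed to 844 to 890 FPKM in shUSP7-1 and 1106 to 1373 FPKM in shBUB3 cells. They summed to 1148 to 1209 FPKM in shFOXA1 and 1593 to 1635 FPKM in pLKO control cells. Basal markers summed to 0.288 to 0.422 FPKM in shUSP7-1 and 0.120 to 0.246 FPKM in shBUB3 cells. In shFOXA1 cells they summed to 2.39 to 3.16 FPKM and in pLKO control cells to 0.902 to 1.07 FPKM. Their part in the changes of GDF15 was not tested. The tables hold no read totals, and relative depth, read from the steps of low values, ran from 0.602 to 1.30 of the first pLKO library in the FPKM table and from 0.847 to 1.30 of the first pGIPZ library in the RPKM table. Each targeted gene was lower in its own knockdown than in its control: USP7 at 6.21 against 28.2 FPKM, BUB3 at 4.00 against 36.3 FPKM, FOXA1 at 59.0 against 116 FPKM (shFOXA1) and 82.5 against 131.5 RPKM (shFoxA1), and EZH2 at 4.98 against 12.6 FPKM.

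The first question was how GDF15 moved when each protein was reduced. Differences were tested with limma on log2(value + 1) over all genes of an experiment, with Benjamini-Hochberg adjustment, and genes at an adjusted p under 0.05 are said to have changed. GDF15 rose in shUSP7-1 cells to 3.22 times its pLKO control mean, a log2 fold change of 1.69 ± 0.11 (SE, adjusted p = 1.34e-07). Only 51 of 12524 genes tested had a more positive change, although 62.2% of all genes changed in that comparison, 29.1% higher and 33% lower. It rose in shBUB3 cells to 2.02 times its control mean (log2 fold change 1.00 ± 0.11, adjusted p = 9.8e-06), where 65.2% of genes changed, 33.3% higher and 32% lower. Without the third shBUB3 library its change was 0.86. Between the 2 knockdowns, GDF15 was higher in shUSP7-1 than in shBUB3 cells by 0.68 ± 0.11 on the log2 scale (limma adjusted p = 2.1e-04), where 29% of genes were higher and 36.2% lower.

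GDF15 fell in shFOXA1 cells to 0.692 times its pLKO control mean (log2 fold change -0.53 ± 0.11, limma adjusted p = 0.00111). Of all genes tested there, 70.3% changed, 25.2% higher and 45.1% lower, and 3203 of 12524 had a more negative change than GDF15. The median of all genes in this comparison was -0.15, and it moved up by 0.16 under median-ratio scaling, which left GDF15 at -0.34 (limma adjusted p = 0.023) and made 50.1% of the changed genes higher instead of 35.9%. GDF15 was also lower in shFOXA1 than in shUSP7-1 cells (log2 fold change -2.22 ± 0.11) and lower in shFOXA1 than in shBUB3 cells (-1.53 ± 0.11), with limma adjusted p of 1.06e-08 and 1.65e-07. In the comparison with shUSP7-1 cells 28.1% of genes were higher and 42.9% lower (70.9% in all), and in that with shBUB3 cells 27.6% were higher and 45.8% lower (73.4%). With median-ratio scaling 51.1% and 50.0% of the changed genes were higher in these, against 39.6% and 37.6% as deposited. All 3 knockdowns share the same 3 pLKO control libraries.

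In siEZH2 cells GDF15 fell to 0.408 times its siCtrl mean (log2 fold change -1.29 ± 0.099, limma adjusted p = 2.4e-06). In this comparison 63.3% of genes changed, 20.3% higher and 43% lower, and 377 of 11908 genes had a more negative change than GDF15. The median of all genes was -0.16. Under median-ratio scaling that median stood 0.17 higher, and 49.9% of the changed genes were higher instead of 32.1%, with GDF15 at -1.09. FOXA1 itself was lower in siEZH2 than in siCtrl cells (log2 fold change -0.54, limma adjusted p = 5.8e-05). The luminal markers summed to 359 to 450 FPKM in siEZH2 cells and 1699 to 1801 FPKM in siCtrl cells, and the stromal markers to 11.3 to 14.7 FPKM in siEZH2 cells and 3.17 to 3.88 FPKM in siCtrl cells. Of the stromal list the collagen genes COL1A1 (1.38) and COL3A1 (0.86) were tested and rose (limma adjusted p = 6.2e-06 and 4.2e-05). Their part in the fall of GDF15 was not tested.

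Among the 7 comparisons with an own control, the log2 fold change of GDF15 was lowest in shFoxA1 cells of the pGIPZ experiment. In shFoxA1 cells it was at 0.263 times its pGIPZ control mean (log2 fold change -1.92 ± 0.016, limma adjusted p = 7.1e-15). Only 9 of 12563 genes had a more negative change, and 49.2% of genes changed, 25% higher and 24.2% lower. FOXA1 itself had a log2 fold change of -0.67 in the same comparison and of -0.96 in shFOXA1 against pLKO control cells. The basal markers summed to 5.42 to 7.50 RPKM in shFoxA1 cells and 2.61 to 2.69 RPKM in pGIPZ control cells, and the immune markers to 32.3 to 35.2 RPKM in shFoxA1 cells and 11.8 to 14.8 RPKM in pGIPZ control cells, with CD68 at 1.29 (limma adjusted p = 8.8e-08) and the leukocyte gene PTPRC at 0 in each library of this experiment; their part in the fall of GDF15 was not tested. The change of GDF15 in shFOXA1 cells minus that in shFoxA1 cells, each against its own control, was 1.39 ± 0.048 (limma interaction over 12 libraries, adjusted p = 4.49e-10), and 67.2% of 12705 genes passed the same test, 21.7% with a positive and 45.5% with a negative difference. That fit pooled the spread of the shFOXA1, pLKO control, shFoxA1 and pGIPZ control libraries only. The SE of 0.11 for shFOXA1 against pLKO control came from a fit that also held the more scattered shBUB3 libraries. These SEs therefore rest on different spreads and cannot be set side by side. The vector, the shRNA label, the experiment, the table and the starting level of GDF15 differ between these comparisons at once and cannot be told apart.

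**Figure D2:**
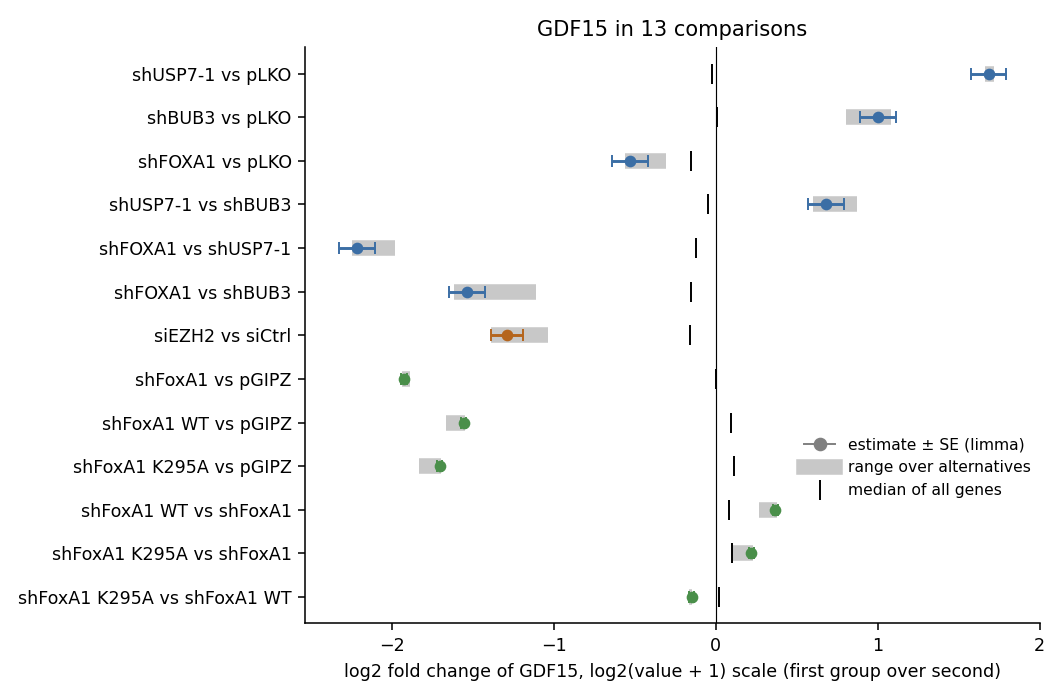
Log2 fold change of GDF15 on the log2(value + 1) scale in 13 comparisons, first group over second. Points and bars are limma estimates ± SE, grey bands the range over all alternative settings, and black ticks the median of all genes tested; GDF15 keeps its sign across each band, from 1.69 for shUSP7-1 against pLKO control to -2.22 for shFOXA1 against shUSP7-1.

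With FOXA1 re-expressed, GDF15 stayed well below its control level. It was at 30.7% of the pGIPZ control mean in shFoxA1 K295A cells, 34.0% in shFoxA1 WT cells and 26.3% in shFoxA1 cells. Against shFoxA1 alone, GDF15 was higher in shFoxA1 WT cells by 0.37 ± 0.016 on the log2 scale (limma adjusted p = 4.2e-09) and higher in shFoxA1 K295A cells by 0.22 ± 0.016 (adjusted p = 4.0e-07). With WT 36.6% of all genes were higher than in shFoxA1 alone and 18.9% lower (55.5% in all), and with K295A 38.7% were higher and 18.3% lower (56.9%). Of 12563 genes, 1963 with WT and 4119 with K295A had a more positive change than GDF15. Median-ratio scaling made 49.1% and 48.5% of the changed genes higher, instead of 65.9% and 67.9%, and put GDF15 at 0.27 with WT and 0.10 with K295A. Against pGIPZ control cells GDF15 was still lower, with log2 fold changes of -1.55 ± 0.016 in shFoxA1 WT and -1.70 ± 0.016 in shFoxA1 K295A cells (limma adjusted p = 4.1e-14 and 2.9e-14). With WT 33.7% of genes were higher than in the control and 11.8% lower (45.5% in all), and with K295A 37.8% were higher and 12.8% lower (50.5%). Of the changed genes 74.0% with WT and 74.7% with K295A were higher, and 47.6% and 48.4% with median-ratio scaling. The FOXA1 row itself was above its pGIPZ control level in both groups, by 0.20 in shFoxA1 K295A and 0.21 in shFoxA1 WT cells (limma adjusted p = 3.7e-05 and 4.0e-05); reads of the cells' own FOXA1 and of the introduced copies cannot be told apart in it.

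Few genes passed the test between the K295A and WT forms of FOXA1, and GDF15 was 1 of them. GDF15 was at 763 to 777 RPKM with K295A and 846 to 858 RPKM with WT, groups that did not overlap. The ratio of means was 0.903, a log2 fold change of -0.15 ± 0.016 (limma adjusted p = 0.00465). By size, 1629 of 12563 genes had a larger change, and 709 had a more negative one. Only 23 of 12563 genes (0.183%) changed, 11 (0.0876%) higher and 12 (0.0955%) lower with K295A, and GDF15 was the fourth of them by p; 1310 genes had an unadjusted p under 0.05. The others included, picked after their values were seen, the interferon-induced gene IFIT3 (0.58, adjusted p = 9.1e-04), FTH1 (0.14, adjusted p = 0.00465) and the androgen-regulated protease gene TMPRSS2 (-0.16, adjusted p = 0.00701). In a fit with no filter on low values GDF15 kept its change of -0.15 at an adjusted p of 0.11, and 11 genes changed. Fitted on the 6 K295A and WT libraries alone, GDF15 had a limma adjusted p of 0.0494, just under the threshold. The number of changed genes was 9 to 18 when 1 of these 6 libraries was left out (15, 9 and 14 without WT replicates 1, 2 and 3, and 13, 18 and 14 without K295A replicates 1, 2 and 3), while GDF15 stayed between -0.16 and -0.14.

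Genes reported to regulate GDF15 went in both directions in each knockdown, as measured by their mRNA. In shUSP7-1 cells 2 of 14 measured regulators rose and 5 fell, against 29.1% and 33% of all genes, and ATF4, the effector of the integrated stress response, was at -0.65 while ATF3 was at 0.48; DDIT3 differed by 0.18 (adjusted p = 0.159). In shBUB3 cells 2 rose and 9 fell (33.3% and 32% of all genes), with KLF4 at -1.35, ATF4 at -0.42 and ATF3 at 0.64. In shFOXA1 cells 6 rose and 5 fell (25.2% and 45.1% of all genes): the lysosomal regulator TFEB was at 1.93, KLF4 at 1.27, DDIT3 at 1.23 and HIF1A, the hypoxia factor, at 1.02, while ATF4 differed by 0.07 (adjusted p = 0.423). With median-ratio scaling 2 instead of 5 fell there. In siEZH2 cells 1 rose and 8 fell (20.3% and 43% of all genes): XBP1, a factor of the unfolded protein response, was at -0.98 and ATF4 at -0.79; with median-ratio scaling 3 rose. In shUSP7-1 cells the count that fell lies near the share of all genes, and the count that rose lies below it. Log2 fold changes and adjusted p-values here and below are from the same limma fits.

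In shFoxA1 cells of the pGIPZ experiment 10 of 16 regulators rose and 4 fell (25% and 24.2% of all genes). HIF1A was at 1.36 and DDIT3 at 0.47, XBP1 at -1.03, KLF4 at -0.55 and ATF4 at -0.15, whereas ATF3 differed by -0.05 (adjusted p = 0.622). Against shFoxA1 alone, 5 regulators rose and 9 fell with K295A (38.7% and 18.3% of all genes), and 5 rose and 9 fell with WT (36.6% and 18.9%); with median-ratio scaling 3 rose with WT. XBP1 was then at 0.76 with K295A and 0.79 with WT, ATF4 at 0.64 and 0.52, KLF4 at -0.97 and -1.30, ATF3 at -0.84 and -0.94, and DDIT3 at -0.84 and -0.93. Between K295A and WT, KLF4 was the only regulator that changed, at 0.33 (adjusted p = 0.0226), and it lost that call in 8 of 12 alternatives.

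The genes called DNA damage targets here are textbook targets of the transcription factor p53, and DNA damage itself was not measured. These targets were mostly higher in shUSP7-1 cells, where GDF15 rose. Of 34 measured members 31 rose and 2 fell, where 29.1% and 33% of all genes did. Their median log2 fold change was 1.15, against -0.02 over all genes. The cell cycle inhibitor CDKN1A (p21) was at 3.26, the mitochondrial reductase FDXR at 2.90 and the antiproliferative gene BTG2 at 2.16, while the apoptosome gene APAF1 was at -0.58. In shBUB3 cells 22 of 34 rose and 4 fell, against 33.3% and 32% of all genes (23 and 6 without the third shBUB3 library, 4 becoming 7 when values were scaled to an equal library sum), with CDKN1A at 2.93, the RNA-binding protein gene ZMAT3 at 1.38, the death receptor gene FAS at 1.13 and the ribonucleotide reductase subunit RRM2B at -0.88. The median there was 0.35, against 0.01 over all genes.

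In the comparisons where GDF15 fell, DNA damage targets went various ways. In shFOXA1 cells 20 of 34 rose and 5 fell, against 25.2% and 45.1% of all genes (3 with median-ratio scaling), with a median of 0.30 against -0.15 over all genes: CDKN1A was at 2.60, while the junction protein gene PERP was at -1.92 and the phosphatase gene PTP4A1 at -1.47. In siEZH2 cells 13 of 33 rose and 6 fell (20.3% and 43% of all genes), SESN1 (sestrin 1) being at 2.49, PTP4A1 at -1.88 and CDKN1A at -1.19. In shFoxA1 cells of the pGIPZ experiment 6 of 34 rose and 18 fell, against 25% and 24.2% of all genes, with a median of -0.18 against 0.00 over all genes and with CDKN1A at -0.26, SUSD6 at -0.64 and the kinase gene PLK2 at 0.92. Against shFoxA1 alone, 12 rose and 12 fell with K295A (38.7% and 18.3% of all genes) and 11 rose and 10 fell with WT (36.6% and 18.9%); with median-ratio scaling the 12 that rose with K295A became 6 and the 10 that fell with WT became 16.

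More targets of ATF4 and the integrated stress response fell than rose in each knockdown. In shUSP7-1 cells, where GDF15 rose, 3 of 25 measured members rose and 19 fell, against 29.1% and 33% of all genes (median -0.81 against -0.02 over all genes): the serine synthesis enzyme PHGDH was at -2.45 and the mitochondrial enzyme PCK2 at -1.79, while SESN2 (sestrin 2), also a DNA damage target, was at 1.41. In shBUB3 cells 4 rose and 17 fell, against 33.3% and 32% of all genes (median -0.58 against 0.01), with PCK2 at -2.19 and the folate enzyme MTHFD2 at -1.90, and 5 rose and 18 fell without the third shBUB3 library. In shFOXA1 cells 7 rose and 14 fell, against 25.2% and 45.1% of all genes (median -0.37 against -0.15), the glutathione-degrading enzyme CHAC1 being at 1.91 and PHGDH at -1.61. In siEZH2 cells 2 rose and 21 fell, against 20.3% and 43% of all genes (median -0.91 against -0.16 over all genes), with PHGDH at -2.11, CHAC1 at -2.07 and the pseudokinase gene TRIB3 at -1.89.

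In shFoxA1 cells against pGIPZ control cells 6 of 25 stress response targets rose and 14 fell, against 25% and 24.2% of all genes (median -0.15 against 0.00), with PCK2 at -0.80 and DDIT4 at -0.71. Against shFoxA1 alone, 17 rose and 4 fell with K295A (38.7% and 18.3% of all genes) and 15 rose and 5 fell with WT (36.6% and 18.9%), with medians of 0.58 and 0.52 against 0.10 and 0.08 over all genes. PCK2 was at 1.08 with K295A and 1.04 with WT.

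**Figure D3:**
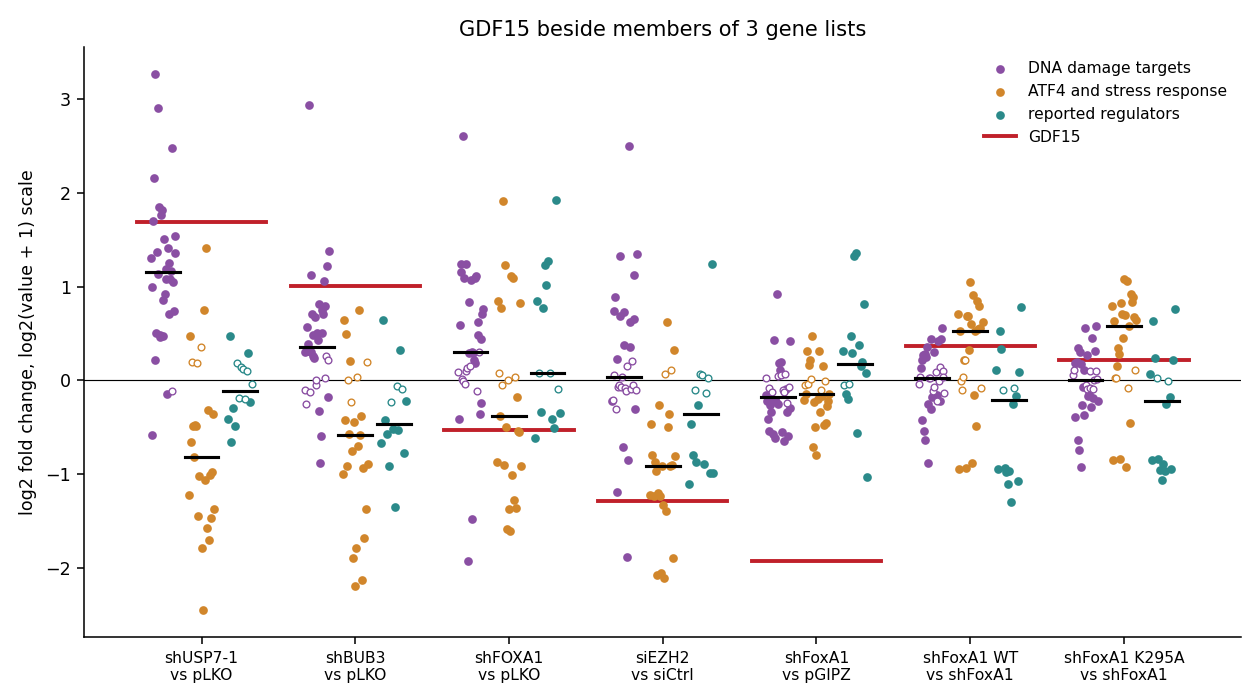
Log2 fold changes (log2(value + 1) scale) of members of 3 gene lists in 7 comparisons, with the change of GDF15 as a red line. Each point is 1 gene, filled where its adjusted p is under 0.05, and black bars are list medians. The DNA damage targets, which are textbook targets of p53, have a median of 1.15 in shUSP7-1 cells, where GDF15 is at 1.69. Stress response targets have a median of -0.81 in shUSP7-1 cells.

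MIR3189, which lies in the GDF15 intron, has its own row, and reads of unspliced GDF15 RNA and of the microRNA precursor cannot be told apart in it. Its mature products are shorter than the fragments such libraries hold; they are shown because the row carries their name, from RefSeq (GRCh38.p14, + strand, 5′ to 3′), with bases 2 to 8, the seed, in capitals. The 2 seeds differ.
hsa-miR-3189-5p, chr19:18386570-18386594: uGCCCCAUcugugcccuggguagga
hsa-miR-3189-3p, chr19:18386607-18386627: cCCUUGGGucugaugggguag

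The intronic row followed GDF15 in some groups and not in others. MIR3189 had 49.0, 52.6 and 50.2 FPKM in shUSP7-1 cells, 32.9, 42.6 and 38.2 FPKM in shBUB3 cells, 21.0, 22.8 and 31.2 FPKM in shFOXA1 cells, and 18.2, 20.2 and 15.9 FPKM in pLKO control cells. Every library of the 3 knockdowns was above the control libraries, in shFOXA1 cells too, where GDF15 was below them. The log2 fold changes of MIR3189 were 1.44 ± 0.14, 1.02 ± 0.14 and 0.43 ± 0.14 (limma adjusted p = 2.9e-06, 4.6e-05 and 0.0149), and the last lost its call without the third shFOXA1 library (0.26, adjusted p = 0.059) or the third pLKO library (0.34, adjusted p = 0.0649).

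In siEZH2 cells MIR3189 had 9.41, 11.2 and 6.94 FPKM, against 8.25, 1.08 and 6.27 FPKM in siCtrl cells, groups that overlapped (0.95 ± 0.44, adjusted p = 0.0851). In the pGIPZ experiment MIR3189 had 4.31, 9.39 and 6.43 RPKM in shFoxA1 K295A cells, 5.13, 4.34 and 1.89 RPKM in shFoxA1 WT cells, 12.5, 13.0 and 21.9 RPKM in shFoxA1 cells, and 26.9, 34.9 and 34.3 RPKM in pGIPZ control cells. It fell in shFoxA1 cells against the control, with a log2 fold change of -1.02 ± 0.31 (adjusted p = 0.0161, and 0.0594 or 0.0565 without the first or second shFoxA1 library, where it was at -0.88 and -0.91). It was lower again with re-expressed FOXA1 than in shFoxA1 alone, with log2 fold changes of -1.13 ± 0.31 with K295A and -1.84 ± 0.31 with WT (adjusted p = 0.00772 and 3.1e-04). The direction was opposite to that of GDF15. The low MIR3189 values in these groups and in the siRNA experiment can rest on few reads. Their counting error was not worked out, so the sizes of these changes are uncertain.

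Genes around GDF15 on chromosome 19 changed in shares near those of all genes in shUSP7-1 and shFOXA1 cells. The nearest neighbours are PGPEP1, a peptidase gene 4781 bases toward lower coordinates, and LRRC25, 1968 bases the other way, which reached at most 0.091 in any library and was not tested. PGPEP1 was at 0.58 in shUSP7-1, 0.87 in shBUB3, -0.43 in shFoxA1 (pGIPZ) and, without passing the test, -0.06 in shFOXA1 and -0.22 in siEZH2 cells (adjusted p = 0.288 and 0.0636). In shUSP7-1 cells 2 of 9 measured neighbours rose and 3 fell, where 29.1% and 33% of all genes did (4 rose when values were scaled to an equal library sum), with the AP-1 gene JUND at 0.58, the inositol synthase ISYNA1 at -1.50 and KXD1 at -0.93. In shBUB3 cells 5 rose and 1 fell, against 33.3% and 32% of all genes (2 fell without the third shBUB3 library), with the chaperone gene FKBP8 at 1.00, JUND at 0.75 and KXD1 at -1.22.

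In shFOXA1 cells 2 of 9 neighbours rose and 4 fell, against 25.2% and 45.1% of all genes, with the RNA-processing gene LSM4 at -0.90; with median-ratio scaling 2 fell. In siEZH2 cells none of 9 rose and 5 fell (20.3% and 43% of all genes), with LSM4 at -0.87 and JUND at -0.60; with median-ratio scaling 2 rose. In shFoxA1 cells of the pGIPZ experiment none of 10 rose and 6 fell (25% and 24.2% of all genes), ISYNA1 being at -0.59 and JUND at -0.35, against -1.92 for GDF15; 1 rose without the third pGIPZ library. Against shFoxA1 alone 7 of 10 rose and none fell, with K295A (38.7% and 18.3% of all genes) as with WT (36.6% and 18.9%); with median-ratio scaling 4 rose with WT and 1 fell with K295A.

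The other ligands of the superfamily had far lower levels than GDF15. Of 32 other TGF-beta superfamily ligands, 8 reached a group mean of 1 in any group. The most abundant of them was INHBB (4.35 FPKM) in shUSP7-1 cells, TGFB3 (19.4 RPKM) in shFoxA1 cells and GDF11 (5.94 FPKM) in pLKO control cells, so that GDF15 stood between 34.0 and 492 times above the next ligand over the 10 groups. TGFB3 rose in shFoxA1 cells by 4.10 over pGIPZ control cells, in the comparison in which GDF15 fell by 1.92. INHBB, an inhibin and activin subunit, was at -1.12 in shFOXA1 and 0.85 in siEZH2 cells, the myostatin relative GDF11 at -0.47 in shUSP7-1 and -0.97 in siEZH2 cells, and AMH at 1.11 in siEZH2 cells. Of 5 ligands tested in the pLKO experiment, 1 rose and 3 fell in shUSP7-1, 1 rose and 1 fell in shBUB3, and 1 rose and 2 fell in shFOXA1 cells, with the shares of all genes as given above. In siEZH2 cells 3 of 6 rose and 1 fell, and in shFoxA1 cells of the pGIPZ experiment 1 of 7 rose and 2 fell.

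The receptor genes had levels near 0. GFRAL reached at most 0.039 in any library and was at 0 in all groups but siCtrl. RET was at most 0.102 in mean level in the 8 groups without re-expressed FOXA1, and at 2.22 RPKM in shFoxA1 K295A and 2.97 RPKM in shFoxA1 WT cells, higher than in shFoxA1 alone by 1.55 and 1.85 (adjusted p = 5.5e-08 and 1.1e-08). Of the proteases that can cut the precursor, FURIN was at 0.85 in shUSP7-1 and 0.47 in shFOXA1 cells. PCSK7 was at 0.67 in shUSP7-1, -0.24 in shBUB3, 0.72 in shFOXA1 and 0.88 in siEZH2 cells, and PCSK6 at -0.48 in shFOXA1 and -0.33 in shFoxA1 (pGIPZ) cells. PCSK5 stayed under 1 in each library and was not tested. The same held for MMP14, a protease gene listed with this pathway but not as one that cuts the precursor.

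Other secreted products of prostate cells changed in both directions in each knockdown. Of 13 measured in the FPKM experiments, 4 rose and 6 fell in shUSP7-1 (29.1% and 33% of all genes), 3 rose and 8 fell in shBUB3 (33.3% and 32%), 3 rose and 9 fell in shFOXA1 (25.2% and 45.1%) and 3 rose and 9 fell in siEZH2 cells (20.3% and 43%). In each of these but shBUB3 more genes fell than rose over all genes too. KLK3, which encodes prostate-specific antigen, was at -1.86, -0.73, -0.52 and -2.72 in the same order. In the pGIPZ experiment 6 of 14 rose and 8 fell in shFoxA1 cells (25% and 24.2% of all genes), with KLK3 at -0.17 and the matrix protein gene SPON2 at -1.50. KLK3 was lower with re-expressed FOXA1 than in shFoxA1 alone (-0.62 with K295A and -0.55 with WT), while SPON2 was higher (0.81 and 0.84). Between K295A and WT, MSMB, a seminal plasma protein gene, was at 0.68 (adjusted p = 0.0498), a call lost in 9 of 12 alternatives.

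The genes whose changes over the 7 comparisons with an own control lay nearest to those of GDF15 were found by the root mean square difference of log2 fold changes among 11545 genes tested in all fits, where the median was 1.52. The nearest was TFF1, a secreted trefoil peptide gene, at 0.588. TFF1 was at 1.09 in shUSP7-1, 0.63 in shBUB3, -0.77 in siEZH2 and -2.38 in shFoxA1 (pGIPZ) cells, and at -0.21 in shFOXA1 cells, where it did not pass the test. With re-expressed FOXA1, GDF15 was at -1.55 in shFoxA1 WT and -1.70 in shFoxA1 K295A cells against pGIPZ control cells. TFF1 was nearer to no change in both, at -0.999 and -0.684. It was followed by the syndecan gene SDC4 (0.788), BCAS1 (0.793), B4GALT5 (0.821), the small nucleolar RNA SNORD54 (0.829), the ubiquitin-like gene ISG15 (0.836), the claudin gene CLDN12 (0.843) and PMAIP1 (0.888), which encodes NOXA and was at 2.62 in shUSP7-1 cells. SDC4, SNORD54, ISG15 and PMAIP1 were at 0.38, 0.58, 0.38 and 0.07 in shFOXA1 cells, and SNORD54 and ISG15 at 0.17 and 0.36 in siEZH2 cells, the sign opposite to that of GDF15. SNORD54 passed the test in 2 of the 7 comparisons. Several of the 7 comparisons share control libraries, so this order is a description of these libraries.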

How the data were processed

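Total RNA of LNCaP cells was sequenced after NEBNext Ultra RNA preparation on an Illumina HiSeq, per the labels' protocols. The authors deposited FPKM values for 18 libraries and RPKM values for 12 libraries, and per the submitters' processing notes STAR and hg38 were used. The sources used here do not name the counter, the annotation, the version of STAR or a further scaling of libraries. Of 26475 rows, 32 without values were left out; no 2 columns were identical. Depth in reads is unknown and no counting interval was worked out, so the counting error of low rows such as MIR3189 is not given. A gene entered a fit if at least 3 of its libraries had a value of 1 or more, values were taken as log2(value + 1), which understates changes of low genes, and each experiment had its own limma fit (3.58.1, R 4.3.3) with an intensity trend and two-sided moderated tests, tested on simulated data. An exact permutation test of 3 against 3 cannot go below 0.1. GDF15 and the gene lists were chosen with earlier results of these data known. The text names GDF15, the targeted genes, all measured members of the receptor, regulator and neighbour lists as needed, up to 4 changed members with large changes of the other lists beside CDKN1A, DDIT3, ATF4, ATF3 and KLK3, neighbours in rank, and the 8 most alike genes. Some members of these lists are counted but not reported here by name. Replicate numbers were checked for pairing: in no experiment did every same-numbered pair of libraries correlate above 0.1 in deviations from group means. With 3 libraries in a group this check cannot exclude pairing. Python 3.11.15 with NumPy 2.4.6, pandas 2.3.3 and matplotlib 3.10.9 did the rest.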

Additional observations from a re-analysis of the deposited data

Results flagged for a closer look

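The change of GDF15 on FOXA1 reduction differed between experiments. It was -0.53 in shFOXA1 against pLKO control cells and -1.92 in shFoxA1 against pGIPZ control cells, a difference of 1.39 ± 0.048 by the limma interaction test (adjusted p = 4.49e-10), with every knockdown library below every control library in both. The SE of this difference is from a fit of only the groups compared, without the more scattered shBUB3 libraries. The difference ran from 1.36 to 1.62 over its alternatives, and 67.2% of genes passed the same test.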

How the results depend on the processing

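Of 173 alternative values of GDF15 in 14 comparisons, 172 kept their direction and their side of the threshold. The exception was shFoxA1 K295A against shFoxA1 WT without a filter on low values, -0.15 at an adjusted p of 0.11, a fit that tested more genes. Leaving out 1 library at a time, GDF15 ranged from 1.66 to 1.70 for shUSP7-1 and from 0.86 to 1.08 for shBUB3 against pLKO control, from -0.56 to -0.49 for shFOXA1, from -1.38 to -1.21 for siEZH2 and from -1.94 to -1.92 for shFoxA1 against pGIPZ control. A replicate block left GDF15 at 1.69 for shUSP7-1 against pLKO control (adjusted p = 1.3e-06) and at -0.15 for K295A against WT (adjusted p = 0.0203), with 14 genes changed instead of 23. The numbers are not stated to pair the libraries, and the block changed no call of GDF15. For K295A against WT, 6 genes changed when only those 6 libraries were fitted, where the limma adjusted p of GDF15 was 0.0494. When values were scaled to an equal library sum, 36 changed. That scaling put GDF15 at 1.67 for shUSP7-1, 0.80 for shBUB3 and -0.30 for shFOXA1 against pLKO control. It put GDF15 at -1.03 for siEZH2 against siCtrl and at -1.88 for shFoxA1 against pGIPZ control. All but the first lay nearer to no change than the ranges with 1 library left out. That scaling also made 34.1% instead of 51.0% of changed genes higher in shBUB3 against pLKO control, 60.6% instead of 44.5% in shUSP7-1 against shBUB3, 52.4% instead of 35.9% in shFOXA1 against pLKO control and 55.2% instead of 32.1% in siEZH2 against siCtrl. Of 1509 alternative values of other named genes 24 lost their call and none reversed; of 2184 alternative list counts 131 moved by over 1.5 times. No counting interval was worked out, and values of low rows such as MIR3189 can rest on few reads.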
